A study of Rattus norvegicus with 8 samples.

Results

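Processes and somata of rat hippocampal neurons were compared after 48 h of picrotoxin (PTX), a GABA-A receptor antagonist that removes inhibition in the culture. The comparison rests on 4 of the 8 libraries of the series, chosen by their labels: 2 libraries of the process compartment and 2 of the somatic compartment, all from PTX-treated cultures. The neurons came from embryonic Sprague-Dawley rats and grew on porous inserts, so that cell bodies stayed on the upper side while axons and dendrites reached the lower side. PTX was in the medium from day in vitro (DIV) 18 to DIV 20. The other 4 libraries, 2 of somata and 2 of processes, came from control cultures that the methods describe as treated with the ethanol vehicle, and they serve here only to ask whether the compartment difference itself changed with PTX. All 8 libraries were made from total RNA after removal of ribosomal RNA. Each culture is a mixture of the cells that survive from embryonic hippocampus, and whether the 2 libraries of a condition came from separate preparations was not stated in the sources used here, so the p-values measure only the spread between these libraries.

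Neurons keep most RNA in the cell body but move part of it into dendrites and axons, where ribosomes translate it close to synapses. Classical dendritic mRNAs encode postsynaptic proteins such as the alpha subunit of CaM kinase II and the Shank scaffolds, and mRNAs of ribosomal proteins and of mitochondrial enzymes are also found in distal processes. RNAs that work in the nucleus, such as the small RNAs of the spliceosome, and mRNAs of secreted proteins, which are translated at the rough endoplasmic reticulum, are known for the cell body. Blocking inhibition for days drives homeostatic downscaling, in which neurons weaken their excitatory synapses.

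The 2 PTX somata libraries held 14520831 and 12290890 reads and the 2 PTX process libraries 16972388 and 17444265. Genes of the mitochondrial genome took 22.7% and 22.6% of the reads in somata and 71.6% and 68.5% in processes, which left 11227599 and 9517542 reads for all other genes in somata and 4817689 and 5491237 in processes. A tested gene had a median of 319 and 269 reads in somata but 98 and 110 in processes, so that low genes were measured less precisely in processes. Pearson's r of log2 CPM between the 2 libraries of a compartment, across genes, was 0.987 in somata and 0.978 in processes. Standard errors are written SE. Levels are given in CPM, the reads of a gene per 1e6 reads, after scaling with TMM factors, and the log2 fold change is processes over somata, so that positive values are higher in processes. Because the scaling sets the typical gene near equality, a difference is relative to the typical gene. Fewer or thinner processes and less RNA per process cannot be told apart in bulk libraries.

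Of 28909 gene symbols, 14309 passed the filter on low counts and were tested. In PTX cultures 1626 genes (11.4% of those tested) were higher in processes at an adjusted p under 0.05 with a log2 fold change above 1, and 1383 genes (9.67%) were higher in somata by the same rule; these genes are referred to as called. The shares of 11.4% and 9.67% are the background for the counts of every list below. The libraries of the 2 compartments did not overlap for 1625 of the 1626 genes called in processes and for all 1383 called in somata. A lack of overlap therefore does not set a called gene apart. Over all tested genes the median difference was -0.05, 5% of them lay below -1.45 and 5% above 1.54. Without the fold rule, 3680 genes (25.7%) were higher in processes and 3441 (24%) in somata. The split between the sides depended on the scaling. Scaled by the reads outside the mitochondrial genome, which moved the median by -0.45, 820 genes were called in processes and 3479 in somata, and with upper quartile factors, which moved it by -0.18, the counts were 1249 and 2038. With library size alone the median moved by -1.82 and the counts were 51 and 12144. Under such a scaling, positive log2 fold changes smaller than the size of the shift turn negative, and negative ones become more negative. Directions here are therefore relative to the typical gene.

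**Figure D1:**
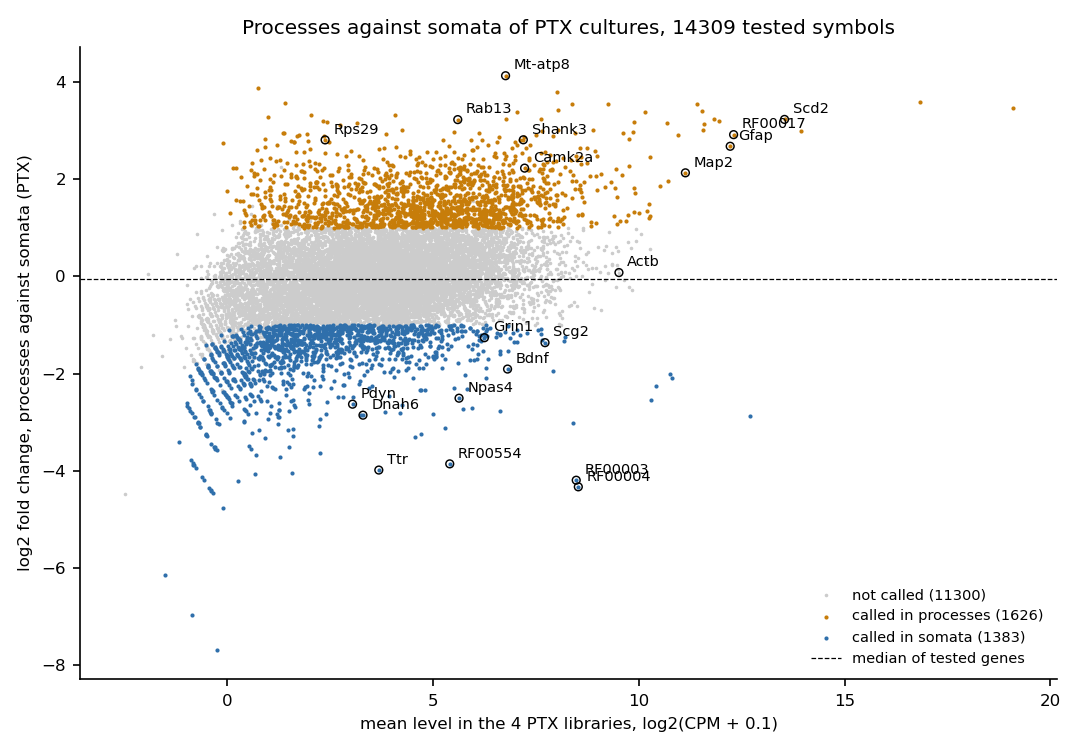
Mean level over the 4 PTX libraries, as log2(CPM + 0.1), against the log2 fold change of processes over somata for the 14309 tested symbols. Orange points are the 1626 genes called in processes, blue points the 1383 called in somata, grey points the rest, circles mark named genes, and the dashed line is the median of tested genes at -0.05; Mt-atp8 and Scd2 lie high on the process side and RF00003 and RF00004 low on the somatic side.

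Messenger RNAs of the cytosolic ribosome were called on the process side with few exceptions. Of 77 tested ribosomal protein genes, 73 were called in processes and 0 in somata, and their median log2 fold change was 1.70 against -0.05 for all tested genes. Rps29, a protein of the small subunit, was measured at 1.08 and 1.48 CPM in somata and 9.19 and 8.65 CPM in processes, with 30 and 35 reads in somata. The log2 fold change of Rps29 was 2.80 (SE 0.257, adjusted p = 9.78e-06). Rpl37a, of the large subunit, was measured at 44.7 and 42.1 CPM in somata and 278 and 289 CPM in processes, a log2 fold change of 2.71 (SE 0.13, adjusted p = 4.72e-07). The process libraries of both genes lay far above the somata libraries. At the other end of the list, Rpl6 reached 0.77 (SE 0.135, adjusted p = 0.000806) and was not called because of its size, and it missed the threshold when scaled by the reads outside the mitochondrial genome (0.32, adjusted p = 0.053). The lowest member was Rpl7l1, a nucleolar relative of Rpl7 and not a subunit of the mature ribosome, with -0.57 (SE 0.159, adjusted p = 0.0123), and its adjusted p was 0.0517 without replicate 2 of PTX somata and 0.0725 without replicate 1 of PTX processes. Ribosomal protein genes have many processed pseudogenes, and reads that fit both could be counted with either. Of 190 tested processed pseudogenes, 51 were called in processes and 7 in somata.

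Ribosomal protein mRNAs of mammals start with a run of pyrimidines that places them under common translational control. RefSeq promoters of the GRCr8 build, from 250 bases before to 50 bases after the transcript start, were found for 61 of the 77 genes. They were searched for TCTTTC and CTTTCC, which overlap each other in part. On either strand, 41 of the 61 (67.2%) held at least 1 of them, against 37.9% of all 27457 promoters of the same length. On the sense strand within 20 bases of the start, 22 of 61 (36.1%) held one, against 2.8% of all promoters and 5.34% of those of genes called in processes. The genes called in processes include 73 of the 77 ribosomal protein genes, so their share is not separate from that of this list. The 4 ribosomal protein genes with the largest log2 fold change among these 22 are shown to let the start region be seen, each as 60 bases from 35 before to 25 after the start, with the motif in capitals, followed by Rps2, the highest gene of the list with no match in its 300 bases. A match is a description of the letters and not a site.
Rpsa (chr8:128728844-128728903, plus strand): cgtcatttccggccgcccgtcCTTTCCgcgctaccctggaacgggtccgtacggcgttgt
Rps27 (chr2:177964582-177964641, minus strand): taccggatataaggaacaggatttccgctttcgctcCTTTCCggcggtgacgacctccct
Rps23 (chr2:23814482-23814541, plus strand): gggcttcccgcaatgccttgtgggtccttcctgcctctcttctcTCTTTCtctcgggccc
Rpl31 (chr9:49143076-49143135, plus strand): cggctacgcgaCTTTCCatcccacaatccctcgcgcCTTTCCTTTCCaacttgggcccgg
Rps2 (chr10:14251813-14251872, plus strand): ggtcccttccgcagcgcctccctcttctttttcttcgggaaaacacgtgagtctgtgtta
The log2 fold changes in PTX cultures were 2.47 for Rpsa, 2.21 for Rps27, 2.10 for Rps23, 2.02 for Rpl31 and 2.35 for Rps2; all 5 were picked for a high value, so these say nothing of genes with and without a match.

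Other parts of the translation machinery were less uniform. Among 52 initiation and elongation factors, 12 were called in processes and 0 in somata, with a median of 0.34. Eef1b2, an exchange factor of elongation factor 1, was measured at 36.4 and 39.1 CPM in somata and 128 and 148 CPM in processes, a log2 fold change of 1.87 (SE 0.131, adjusted p = 1.73e-06). Eif4e3, a relative of the cap-binding protein, reached 1.64. Eif2b1 and Eif2b2, subunits of the exchange factor that recharges eIF2, were on the somatic side with -0.91 and -0.77, past the adjusted p but not the fold rule. RNA-binding proteins of neuronal granules gave 5 called in processes and 0 in somata of 34. Their share in processes was only a little above the 11.4% of all tested genes. Pabpc1, the cytoplasmic poly(A)-binding protein, was measured at 72 and 69.3 CPM in somata and 341 and 352 CPM in processes, a log2 fold change of 2.29 (SE 0.11, adjusted p = 4.72e-07), and Ybx1, which packages mRNA, reached 2.13. Cpeb1, which binds the cytoplasmic polyadenylation element, stood at -0.79. Ribosomal proteins of mitochondria, which are also encoded in the nucleus, lay close to the typical gene, with 4 of 75 called in processes, 1 in somata and a median of 0.08. Their extremes were Mrpl54 and Mrpl52 with 1.47 and 1.39 and Mrps31 and Mrpl39 with -1.02 and -0.98.

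Transcripts of oxidative phosphorylation were higher in processes whether they came from the nucleus or from mitochondria. All 13 protein genes of the mitochondrial genome were called in processes, by between 2.99 and 4.12 and a median of 3.24. Mt-co1, subunit 1 of cytochrome c oxidase, was measured at 3529 and 3475 CPM in somata and 29320 and 26360 CPM in processes, a log2 fold change of 2.99 (SE 0.185, adjusted p = 8.97e-07). Mt-cyb, the cytochrome b of complex III, gave 3.01, and the complex I genes Mt-nd2 and Mt-nd6 gave 3.54 and 3.55. The largest value was that of Mt-atp8, an ATP synthase subunit, with 4.12; it overlaps its neighbour Mt-atp6, so its reads may belong to either. The mitochondrial rRNA AY172581.9 differed by 3.58. Of 88 nuclear genes of the respiratory chain and its assembly, 35 were called in processes and 0 in somata, and a further 31 passed the adjusted p alone on the process side, with a median of 0.83. Atp5f1e, the epsilon subunit of ATP synthase, was measured at 34.5 and 39.6 CPM in somata and 169 and 164 CPM in processes, a log2 fold change of 2.17 (SE 0.119, adjusted p = 6.84e-07), and Cox6a1 reached 1.81. In contrast, 0 of the 17 glycolytic enzymes were called in processes and their median was 0.00. Pfkp, a phosphofructokinase that controls glycolysis, was the 1 called in somata, with 159 and 139 CPM in somata and 76.5 and 58.2 CPM in processes and a log2 fold change of -1.15 (SE 0.138, adjusted p = 6.52e-05), while Aldoc, an aldolase also used as an astrocyte marker, stood at 0.60.

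**Figure D2:**
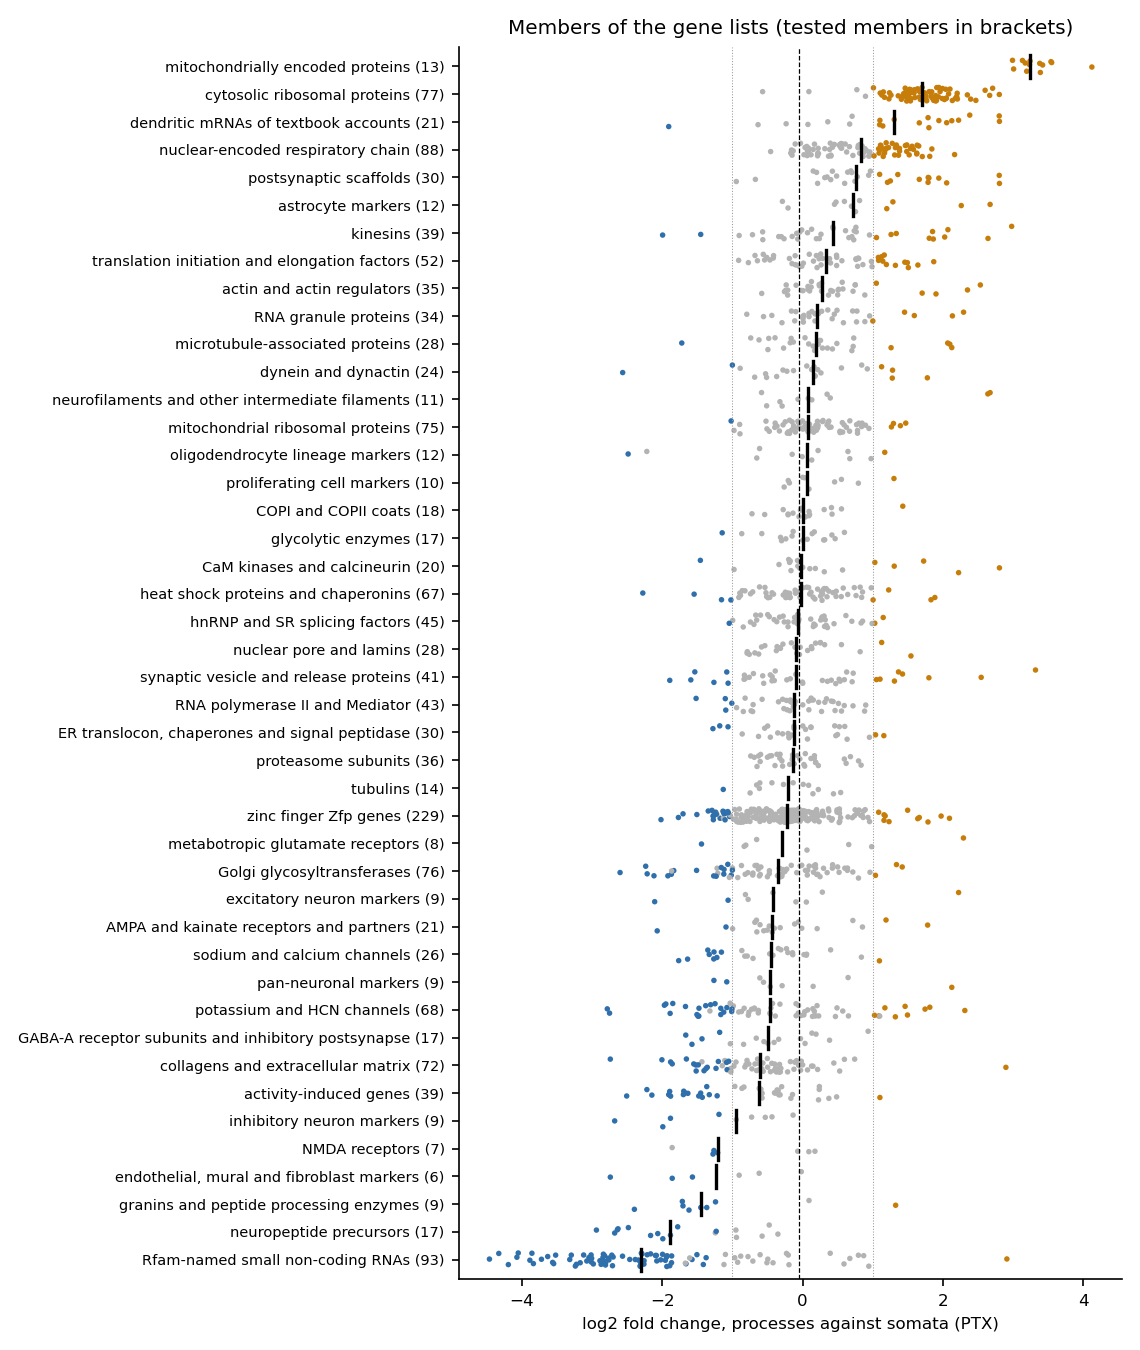
Log2 fold change of processes over somata in PTX cultures for each tested member of the gene lists, with the number of tested members in brackets. Orange and blue points were called in processes and in somata, grey points were not called, black bars are list medians, the dashed line is the median of all tested genes and dotted lines are the fold rule; the list medians run from 3.24 for mitochondrially encoded proteins to -2.30 for Rfam-named small RNAs.

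Messages known from dendrites were mostly found on the process side. Of 21 mRNAs that textbook accounts name as dendritic, 14 were called in processes and 1 in somata, with a median of 1.31. Shank3, a scaffold of the postsynaptic density, was measured at 36.1 and 37.2 CPM in somata and 262 and 249 CPM in processes, a log2 fold change of 2.81 (SE 0.169, adjusted p = 8.38e-07), and Shank1 at 33.7 and 35.5 CPM in somata and 244 and 239 CPM in processes, a log2 fold change of 2.80 (SE 0.211, adjusted p = 2.54e-06). Both process libraries stood several times above both somata libraries. Camk2a, the alpha subunit of CaM kinase II, was measured at 50.2 and 55.2 CPM in somata and 234 and 258 CPM in processes, a log2 fold change of 2.22 (SE 0.154, adjusted p = 1.63e-06). Map2, the microtubule-associated protein that marks dendrites, was measured at 861 and 812 CPM in somata and 3935 and 3369 CPM in processes and Ddn, the postsynaptic protein dendrin, at 110.1 and 100 CPM in somata and 615 and 480.1 CPM in processes; they differed by 2.13 and 2.38 on the log2 scale. Arc, an immediate early gene whose mRNA travels into dendrites, was measured at 22.3 and 28.3 CPM in somata and 45 and 63.1 CPM in processes, a smaller log2 fold change of 1.10 (SE 0.176, adjusted p = 0.000466). By adjusted p, 4 of the 21 did not pass: Itpr1 with -0.23, Nrgn with 0.71, Fmr1 with 0.36, and Actb. The 2 that were higher in somata were Bdnf and Lingo1. Bdnf, a neurotrophin induced by activity, was measured at 180.5 and 174 CPM in somata and 49.7 and 44.7 CPM in processes, a log2 fold change of -1.91 (SE 0.178, adjusted p = 1.12e-05), and Lingo1, a membrane protein of the Nogo receptor complex, stood at -0.63. Actb, whose mRNA is also known from growth cones, was measured at 673 and 754 CPM in somata and 720.4 and 784 CPM in processes and did not differ beyond the replicate spread (log2 fold change 0.08 (SE 0.125, adjusted p = 0.633)); its sign turned with upper quartile factors (-0.10) and with the reads outside the mitochondrial genome (-0.38).

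Scaffolds and kinases of the postsynapse went with the dendritic mRNAs, while the receptors they hold did not. Of 30 scaffold genes, 12 were called in processes and 0 in somata, with a median of 0.76. Dlg4, which encodes PSD-95, was measured at 139 and 145 CPM in somata and 479 and 419 CPM in processes, a log2 fold change of 1.66 (SE 0.165, adjusted p = 1.7e-05), whereas its relative Dlg3 and the insulin receptor substrate Baiap2 stood on the somatic side with -0.67 and -0.94. Srcin1, an inhibitor of Src kinase at synapses, reached 1.79. CaM kinases and calcineurin gave 5 called in processes and 1 in somata of 20 genes. Camk2n1, an inhibitor of CaM kinase II, was measured at 9.78 and 8.98 CPM in somata and 75.1 and 56.4 CPM in processes, a log2 fold change of 2.81 (SE 0.203, adjusted p = 2.1e-06). Camk1g and Camkk1, a CaM kinase I isoform and its upstream kinase, were lower in processes with -1.46 and -0.98.

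All 3 major NMDA receptor subunit mRNAs were called in somata. Grin1, the subunit every NMDA receptor contains, was measured at 112 and 102 CPM in somata and 48 and 41.4 CPM in processes, a log2 fold change of -1.26 (SE 0.158, adjusted p = 8.54e-05). Grin2b, a subunit of juvenile and mature receptors, was measured at 113 and 101 CPM in somata and 50.8 and 41.8 CPM in processes, a log2 fold change of -1.21 (SE 0.125, adjusted p = 2.23e-05), and Grin2a gave -1.28. The other 4 NMDA subunits did not pass. AMPA and kainate receptors with their partners gave 2 called on each side of 21 genes, but by adjusted p alone 4 were higher in processes and 8 in somata, with a median of -0.43. The core AMPA receptor subunits Gria1, Gria2 and Gria3 were among the 8, with -0.55, -0.997 and -0.47; Gria3 did not pass without replicate 1 or 2 of PTX somata or replicate 2 of PTX processes (adjusted p = 0.0632, 0.083 and 0.174). The called genes of the process side were Cnih2 and Cacng4, auxiliary proteins that set the export and the gating of AMPA receptors, with 1.78 and 1.19, and those of the somatic side Cacng5 and Shisa7 with -2.07 and -1.09. Among 8 metabotropic glutamate receptors, Grm3, a receptor shared by neurons and astrocytes, was measured at 22.8 and 23.8 CPM in somata and 112 and 116 CPM in processes, a log2 fold change of 2.29 (SE 0.13, adjusted p = 6.9e-07), and Grm5 stood just under the fold rule with 0.98. GABA-A receptor subunits and proteins of the inhibitory postsynapse, the targets of PTX among them, gave 0 called in processes and 4 in somata of 17, with a median of -0.49. Lhfpl4, which anchors such receptors at synapses, stood on the process side with 0.93.

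Ion channels of the membrane also leaned to the somata. Of 68 tested potassium and HCN channel genes, 9 were called in processes and 20 in somata, with a median of -0.46, and of 26 sodium and calcium channel genes 1 and 8, with a median of -0.45. Kcna4, an A-type potassium channel, was measured at 29.3 and 26.6 CPM in somata and 7.12 and 7.34 CPM in processes, a log2 fold change of -1.95 (SE 0.155, adjusted p = 3.78e-06). Scn1a, a sodium channel of the axon initial segment, was measured at 36.6 and 28.9 CPM in somata and 9.3 and 9.95 CPM in processes, a log2 fold change of -1.76 (SE 0.195, adjusted p = 3.53e-05), and its auxiliary subunit Scn3b gave -1.64. Kcnk1, a leak channel, gave -1.89. On the process side were Kcne5, a potassium channel subunit, with 1.81, and Kcnj10, the inward rectifier of astrocytes, with 1.75. For Kcnj10 replicate 2 was well above replicate 1 on both sides, with 9.17 and 21.3 CPM in somata and 29.7 and 71.3 CPM in processes, and its fold change in log2 was 0.97 (adjusted p = 0.131) without replicate 2 of PTX processes and 2.48 without replicate 2 of PTX somata. Kcne5 moved to 2.40 without replicate 2 of PTX somata. Cacnb3, a beta subunit, was the 1 calcium channel gene called in processes with 1.09, and Cacna1i, a T-type channel, stood below the fold rule with 0.84.

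Presynaptic mRNAs were split. Of 41 genes of synaptic vesicles and release, 8 were called in processes and 6 in somata, with a median of -0.10. Unc13c, a priming factor of vesicle release, had, among genes of at least 5 CPM that are neither clone-named nor mitochondrial, the largest log2 fold change, 3.32 (SE 0.355, adjusted p = 2.85e-05), from 3.34 and 2.75 CPM in somata and 39 and 22.4 CPM in processes. Ppfia3, a liprin of the active zone, reached 2.54. Transmembrane proteins of the vesicle were found on both sides. Vamp2, the vesicle SNARE of transmitter release, and Syt7, a calcium sensor, were called in processes with 1.31 and 1.42. Syngr3, a synaptogyrin, was measured at 48.4 and 37 CPM in somata and 12.5 and 10.6 CPM in processes, a log2 fold change of -1.89 (SE 0.17, adjusted p = 8.58e-06). Sv2a, Syp and the calcium sensor Syt1 were also called in somata, with -1.59, -1.26 and -1.08.

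Among cytoskeletal genes, kinesins gave 10 called in processes and 2 in somata of 39 genes, with a median of 0.43, and the other lists had medians between -0.20 and 0.27. The process shares of the dynein, microtubule-associated and actin lists were only a little above the 11.4% of all tested genes. Kif1c, a plus-end motor, was measured at 35.3 and 54.3 CPM in somata and 303 and 403 CPM in processes, a log2 fold change of 2.98 (SE 0.249, adjusted p = 5.2e-06), and Kif5b, the heavy chain of conventional kinesin, at 108 and 127 CPM in somata and 717 and 747 CPM in processes, a log2 fold change of 2.64 (SE 0.131, adjusted p = 5.29e-07). Kif3a, of the heterotrimeric kinesin, was higher in somata with -0.71. Of 24 dynein and dynactin genes, 4 and 2 were called; Bicd2 and Dynll2, an adaptor and a light chain, reached 1.78 and 1.28, the intermediate chain Dync1i1 gave -0.89, and the light intermediate chain Dync1li1 lay just past the fold rule on the somatic side. Microtubule-associated proteins gave 4 and 1 of 28, with Map4 at 2.10 and Stmn4, a stathmin that binds free tubulin, at -1.72. Actin and its regulators gave 5 and 0 of 35, led by Wasf3, an activator of actin branching, with 2.53 and the spectrin partner Add3 with 2.35, while the Arp2/3 subunit Arpc3 stood at -0.58. Tubulins gave 0 and 1 of 14, the 1 being Tubb4a with -1.13. Among 11 intermediate filament genes, 2 were called in processes and they were Nes and Gfap, filaments of progenitors and astrocytes, with 2.64 and 2.67.

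The mRNAs of neuropeptides and their processing enzymes were mostly somatic. Of 17 neuropeptide precursors, 0 were called in processes and 11 in somata, with a median of -1.88. Penk, the enkephalin precursor, was measured at 24.5 and 28.6 CPM in somata and 7.23 and 5.53 CPM in processes, a log2 fold change of -2.06 (SE 0.229, adjusted p = 3.64e-05). Pdyn, the dynorphin precursor, was measured at 18.5 and 9.48 CPM in somata and 2.98 and 1.61 CPM in processes, with 26 and 16 reads in processes, a log2 fold change of -2.63 (SE 0.463, adjusted p = 0.000869). Granins and the enzymes that cut and finish peptides gave 7 of 9 called in somata. Scg2, a granin, was measured at 322 and 286 CPM in somata and 112 and 124 CPM in processes, a log2 fold change of -1.36 (SE 0.144, adjusted p = 2.61e-05), and Chga, Chgb, Scg5, Pcsk2 and Pam gave -1.45, -1.62, -1.71, -1.70 and -1.24. The exception was Cpe, the carboxypeptidase that trims peptide ends, which was measured at 506 and 565 CPM in somata and 1113 and 1572 CPM in processes, a log2 fold change of 1.33 (SE 0.177, adjusted p = 0.000134).

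The extracellular matrix and Golgi lists behaved like the cargo, but less uniformly. Collagens and other matrix genes gave 1 called in processes and 18 in somata of 72, with a median of -0.61. Acan, the aggrecan of perineuronal nets, gave -1.88 and Reln, the glycoprotein reelin, -1.40. The 1 matrix gene on the process side was Sparc, a calcium-binding glycoprotein made by astrocytes, with 433 and 500.4 CPM in somata and 3418 and 3532 CPM in processes and a log2 fold change of 2.90 (SE 0.144, adjusted p = 5.29e-07). Golgi glycosyltransferases gave 3 and 16 of 76, from Hs3st1, a heparan sulfate sulfotransferase, with -2.23 and Chst8 with -2.21 to B4galt2 with 1.34 and St6galnac6 with 1.42; Chst8 moved to -2.81 without replicate 1 of PTX processes. The machinery that handles this cargo showed no such lean. Translocon, chaperone and signal peptidase genes of the endoplasmic reticulum gave 2 and 3 of 30, with Sec63 and Srp9 at 1.16 and 1.04 and Ddost and Sec61a2 at -1.28 and -1.18. COPI and COPII coats gave 1 and 0 of 18, with a median of 0.01 and Sec13 at -0.72.

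Small RNAs named by Rfam families were mostly on the somatic side, while the mRNAs of nuclear proteins lay near the typical gene. The 15 tested symbols of the class snoRNA, small nucleolar RNAs, did not share this lean. Of these, 2 were called in processes and 0 in somata, with a median of 0.18. Of 93 tested symbols named by Rfam families, which can stand for many copies in the genome, 70 were called in somata and 1 in processes, with a median of -2.30. RF00003, the family of the U1 spliceosomal RNA, was measured at 661 and 692 CPM in somata and 28.4 and 45.5 CPM in processes, a log2 fold change of -4.19 (SE 0.29, adjusted p = 1.6e-06). RF00004, the U2 family, was measured at 666 and 743 CPM in somata and 26.5 and 43.3 CPM in processes, a log2 fold change of -4.33 (SE 0.297, adjusted p = 1.54e-06). RF00015, the U4 family, gave -3.29 and RF00554, a small nucleolar RNA family, -3.86. The 1 family called in processes was RF00017, the RNA of the cytoplasmic signal recognition particle, with 1179 and 1193 CPM in somata and 8388 and 9453 CPM in processes and a log2 fold change of 2.91 (SE 0.16, adjusted p = 6.84e-07); RF00019, the Y RNAs, stood at 0.94. Small RNAs of this length are only partly kept by a standard library, so the levels are not those of the RNAs in the cell. Snhg11, a long non-coding host gene, gave -1.63.

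By contrast, messages for the splicing machinery were called in processes for 2 and in somata for 1 of 45 hnRNP and SR genes, with Hnrnpa3 and Hnrnpul2 at 1.15 and 1.03 and Tra2a at -1.04. RNA polymerase II and Mediator gave 0 and 4 of 43, Med27 among them with -1.09. Nuclear pore and lamin genes gave 2 and 0 of 28, namely Nup62 with 1.54 and Tpr with 1.13. The 229 tested Zfp zinc finger genes gave 11 and 22, with a median of -0.22, from Zfp106 and Zfp24 with 2.09 and 1.97 to Zfp692 and Zfp612 with -1.70 and -1.51. Proteasome subunits gave 0 and 0 of 36, with Psma5 lowest at -0.74. Heat shock proteins and chaperonins gave 4 and 4 of 67, with Dnajc5 and Dnajc1 at 1.89 and 1.83 and Dnajc16 and Dnajb1 at -1.16 and -1.02. The shares of these lists lay below the 11.4% and 9.67% of all tested genes.

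Of 39 genes that neuronal activity induces, 16 were called in somata and 1, Arc, in processes, with a median of -0.62. The control cultures gave much the same, with 14 called in somata, 1 in processes and a median of -0.64. Npas4, a transcription factor of calcium signalling, was measured at 80.5 and 88 CPM in somata and 11.4 and 18.1 CPM in processes, a log2 fold change of -2.51 (SE 0.187, adjusted p = 2.54e-06). Gadd45g, a growth arrest gene, was measured at 16.3 and 14.1 CPM in somata and 2.98 and 3.82 CPM in processes, a log2 fold change of -2.15 (SE 0.187, adjusted p = 6.86e-06). Plk2, a kinase that removes spine proteins during downscaling, was measured at 143 and 104 CPM in somata and 39 and 27.6 CPM in processes, a log2 fold change of -1.89 (SE 0.222, adjusted p = 5.5e-05). Each of these 3 was lower in both process libraries than in either somata library, as held for all 1383 genes called in somata.

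**Figure D3:**
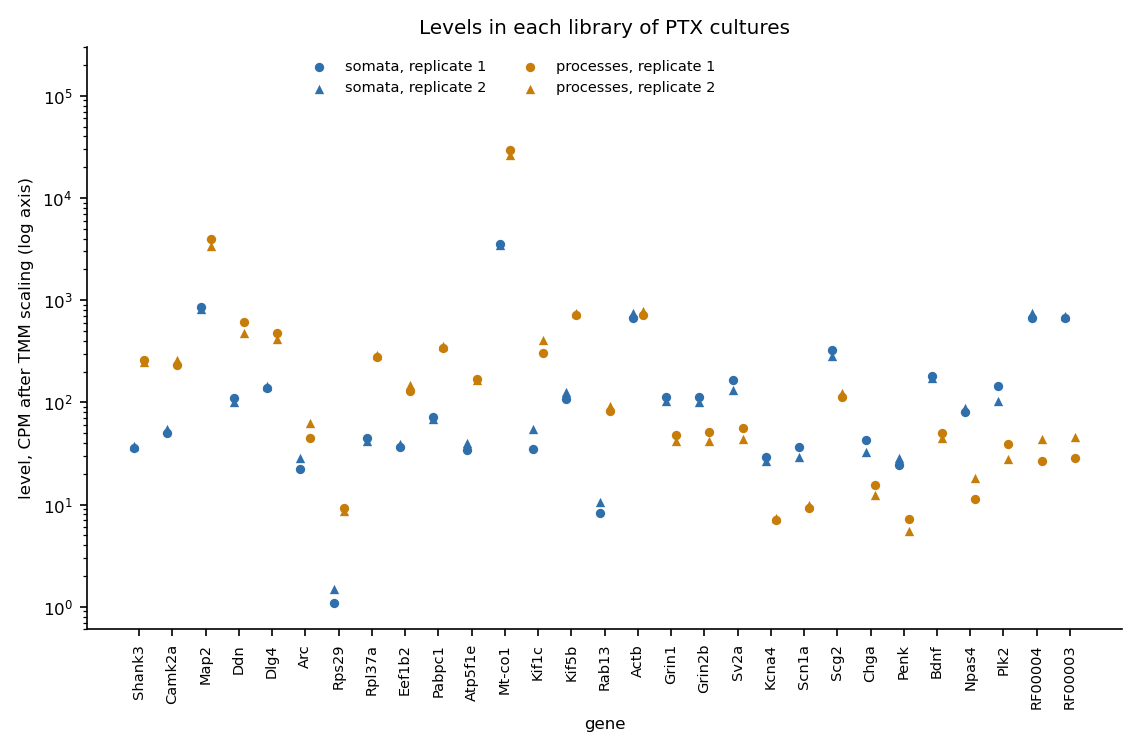
Level in CPM after TMM scaling, on a log axis, of named genes in the 2 somata (blue) and 2 process (orange) libraries of PTX cultures, with circles for replicate 1 and triangles for replicate 2. From Shank3 to Rab13 the process libraries lie above the somata libraries, Actb lies level, and from Grin1 to RF00003 the process libraries lie below.

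Outside these lists, genes of various functions had the largest differences. Besides Unc13c and Kif1c, the leading genes on the process side were Scd2, a fatty acid desaturase; Rab13, a small GTPase whose mRNA is known from cell protrusions; Gpm6b, a proteolipid; Tp53inp2, a nuclear and autophagy protein; Tsc2, an inhibitor of the growth kinase mTORC1; Yap1, the effector of the Hippo pathway; B2m, the light chain of MHC class I; and Ccnd2, a cyclin. Rab13 was measured at 8.23 and 10.6 CPM in somata and 82.8 and 92.1 CPM in processes, a log2 fold change of 3.22 (SE 0.138, adjusted p = 3.59e-07). Scd2 was measured at 2219 and 2387 CPM in somata and 22130 and 20910 CPM in processes, a log2 fold change of 3.22 (SE 0.155, adjusted p = 4.72e-07), and Tsc2 at 55.3 and 61.2 CPM in somata and 503 and 438 CPM in processes, a log2 fold change of 3.01 (SE 0.133, adjusted p = 3.71e-07). The other 5 lay between 2.95 and 3.15. The clone-named protein-coding gene AABR07015057.1 reached 3.80.

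On the somatic side, 5 of the 10 leading named genes, Dnah6, Dnah12, Dnah1, Wdr63 and Fam227a, are genes of or linked to motile cilia, with log2 fold changes between -2.85 and -2.47. Dnah6, an axonemal dynein, was measured at 20.9 and 13.3 CPM in somata and 2.64 and 2.11 CPM in processes, a log2 fold change of -2.85 (SE 0.422, adjusted p = 0.000276). Pla2g15, a lysosomal phospholipase, gave -2.49. Crhbp, which binds corticotropin-releasing hormone, was measured at 35.4 and 13.6 CPM in somata and 5.28 and 2.01 CPM in processes, a log2 fold change of -2.78 (SE 0.603, adjusted p = 0.00313) that moved to -1.91 without replicate 1 of PTX somata and to -3.61 without replicate 1 of PTX processes. Ttr, the thyroxine carrier of the choroid plexus, was measured at 39.9 and 7.92 CPM in somata and 2.87 and 0.302 CPM in processes, with 25 and 3 reads in processes. The log2 fold change of Ttr was -3.98 (SE 1.34, adjusted p = 0.0298), and it did not pass without replicate 1 of PTX somata (-2.37, adjusted p = 0.176), without replicate 1 or 2 of PTX processes (-6.29 and -3.06, adjusted p = 0.0659 and 0.177), or without replicate 1 or 2 of control processes (adjusted p = 0.0517 and 0.052).

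Some lists of cell type markers leaned to 1 compartment and others did not. The labels call the cells primary hippocampal neurons, and the defining neuronal markers were present on both sides: the summed level of 9 pan-neuronal markers was 2161 and 1949 CPM in somata and 4865 and 4117 CPM in processes, where Map2 gave most of it, and the median of the list was -0.46. The 12 tested astrocyte markers summed to 4240 and 5689 CPM in somata and 13710 and 15890 CPM in processes, 4 of them were called in processes and 0 in somata, and their median was 0.73. Gfap, the filament of astrocytes, was measured at 1057 and 1531 CPM in somata and 7698 and 8799 CPM in processes, a log2 fold change of 2.67 (SE 0.2, adjusted p = 2.54e-06), and S100b gave 2.26. Most of the excess of the astrocyte sum in processes came from Gfap. The higher astrocyte sum stood beside the results for Nes, Sparc, Kcnj10, Grm3 and other genes on the process side, and its part in those results was not tested. Inhibitory neuron markers summed to 739 and 649 CPM in somata and 425 and 368 CPM in processes, with 4 of 9 called in somata, among them Sst with -1.88 and the GABA-synthesizing enzyme Gad1 with -1.19; their part in the results for neuropeptides was not tested. Excitatory neuron markers summed to 324 and 302 CPM in somata and 531 and 532 CPM in processes, and Camk2a gave most of the excess in processes. Of these 9 markers 1 was called in processes and 2 in somata, and their median was -0.42 against -0.94 for the inhibitory list. Oligodendrocyte lineage markers summed to 332 and 525 CPM in somata and 610.2 and 744 CPM in processes, with 1 called on each side of 12 and Olig1 at 1.17. Endothelial, mural and fibroblast markers summed to 69.9 and 41.5 CPM in somata and 45.9 and 24.3 CPM in processes, with 3 of 6 called in somata, Kdr among them with -1.57. Markers of proliferating cells summed to 164 and 227 CPM in somata and 313 and 339 CPM in processes, with 1 of 10 called in processes, Top2a at 1.30, 6 that did not pass and a median of 0.06. Of 10 microglia markers in the table none passed the filter, and together they had 75 and 33 reads in somata and 9 and 8 in processes.

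**Figure D4:**
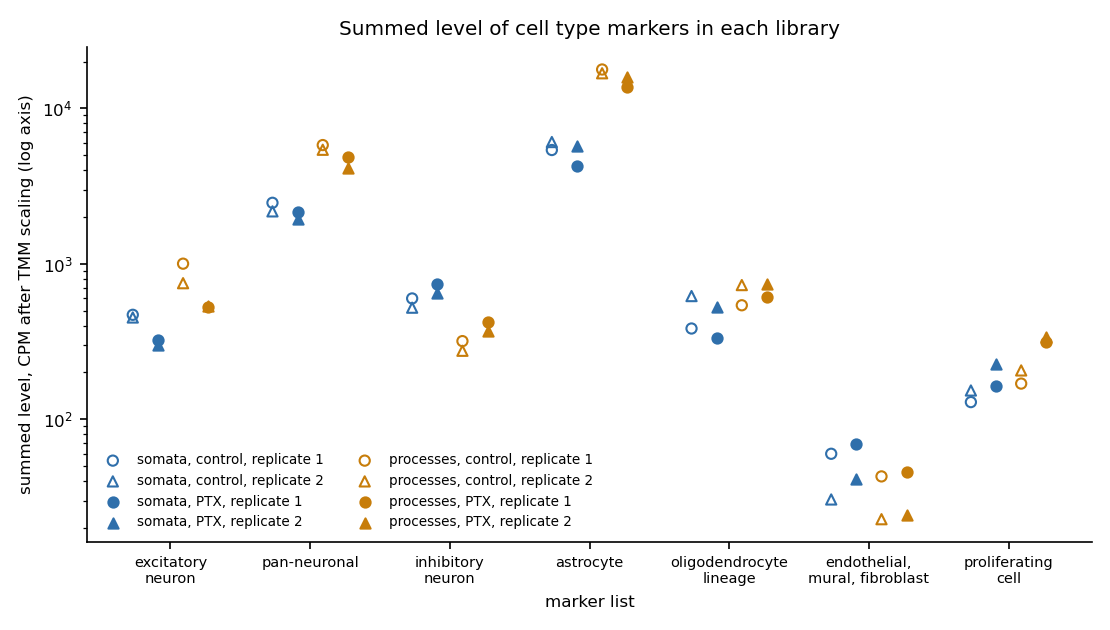
Summed level of the tested cell type markers in each of the 8 libraries, in CPM after TMM scaling on a log axis, with blue for somata, orange for processes, filled symbols for PTX, open symbols for control, circles for replicate 1 and triangles for replicate 2. The astrocyte sums of the process libraries lie above those of the somata libraries with and without PTX, and the inhibitory neuron sums below.

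Whether PTX changed the compartment difference was asked against the control cultures, in which 1658 genes (11.6% of those tested) were called in processes and 1084 (7.58%) in somata. The 2 comparisons share no library. The genes called in processes were largely common: 1386, which are 85.2% of the PTX and 83.6% of the control calls. In somata 774 were common, 56% of the PTX and 71.4% of the control calls. No gene was called on opposite sides, and across the 14309 genes the log2 fold changes had a Pearson's r of 0.903 and a Spearman correlation of 0.902; genes are not independent replicates. The 609 genes called in somata with PTX only had a median of -1.29 with PTX and -0.80 without, 594 of them had the same sign in control, and 87 had an unadjusted interaction p under 0.05. For the 240 genes called in processes with PTX only, the medians were 1.11 and 0.85, and 36 had such a p. The genes called in control only mirrored this. In somata, 310 such genes had medians of -1.19 in control and -0.83 with PTX, and 25 had such a p. In processes, 272 had medians of 1.12 in control and 0.86 with PTX, and 41 had such a p. Over all tested genes 4% had such a p. Each set was picked for passing in only 1 kind of culture, by the same fold changes whose difference is the interaction. Selection therefore moves its medians apart and also favours a low interaction p, so the 4% is no fair background for these counts. Passing in one kind of culture and not in the other is by itself no test of a difference between them.

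The interaction, the PTX difference minus the control difference, tests this directly. By edgeR's quasi-likelihood test 0 genes (0% of those tested) passed an adjusted p of 0.05, with 0.115 as the lowest value reached. Before adjustment, 572 genes (4%) had a p under 0.05, 227 with a positive and 345 with a negative interaction. The likelihood ratio test gave 4 genes, DESeq2 4 and the fit without a filter 10. With the replicate number as a block, which the pairing of the libraries allows, 15 genes (0.105%) passed, 11 with a positive and 4 with a negative interaction.

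Sort1, the sorting receptor sortilin, had the smallest p. In control cultures it was measured at 178 and 162 CPM in somata and 152 and 143 CPM in processes, and in PTX cultures at 139.5 and 132 CPM in somata and 295 and 267 CPM in processes. The compartments were thus close in control, with -0.21, and apart with PTX, with 1.05, an interaction of 1.25 (SE 0.157, unadjusted p = 8.03e-06, adjusted p = 0.115, and 1.24e-05 with the block). Slc36a1, a proton-coupled amino acid transporter of lysosomes, was measured at 16.4 and 17.4 CPM in somata and 24.1 and 16.4 CPM in processes in control and at 13.3 and 14.1 CPM in somata and 47.8 and 39.9 CPM in processes with PTX, an interaction of 1.42 (SE 0.237, unadjusted p = 0.000106, adjusted p = 0.758, and 0.000572 with the block). For both genes the somata libraries were lower and the process libraries higher with PTX. Slc17a7, the vesicular glutamate transporter VGLUT1, turned from the somatic side in control, at 262 and 256 CPM in somata and 170.5 and 130.5 CPM in processes, to a small difference with PTX, at 214 and 198 CPM in somata and 261 and 240.2 CPM in processes. Its log2 fold change went from -0.79 to 0.28, the latter with an adjusted p of 0.106 without and 0.0147 with the block, and the interaction was 1.07 (SE 0.192, unadjusted p = 0.00019, adjusted p = 0.758, and 0.000451 with the block). Trio, an exchange factor for small GTPases, was measured at 153 and 164 CPM in somata and 136 and 136 CPM in processes in control and at 156 and 167 CPM in somata and 247 and 241 CPM in processes with PTX, so that the process libraries were higher with PTX while the somata libraries stayed within a narrow range, an interaction of 0.81 (SE 0.148, unadjusted p = 0.000212, adjusted p = 0.758, and 0.00498 with the block). These 4 genes were also the ones that passed by the likelihood ratio test and by DESeq2.

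Slc7a14, another lysosomal transporter, went the other way. It was measured at 13.3 and 12.8 CPM in somata and 10.4 and 8.1 CPM in processes in control and at 23.9 and 22.1 CPM in somata and 7.12 and 8.24 CPM in processes with PTX, an interaction of -1.08 (SE 0.225, unadjusted p = 0.000614, adjusted p = 1, and 0.0495 with the block). Dnajc6, the auxilin that uncoats clathrin vesicles, was measured at 120.2 and 109 CPM in somata and 224 and 195 CPM in processes in control and at 114 and 95 CPM in somata and 128 and 107 CPM in processes with PTX, where the compartments no longer stood apart, an interaction of -0.69 (SE 0.193, unadjusted p = 0.00434, adjusted p = 1, and 0.0225 with the block). The other genes named by the smallest p were Atp2b2, a calcium pump of the plasma membrane, with 0.77 (SE 0.161, unadjusted p = 0.00062, adjusted p = 1, and 0.0116 with the block); Ndufa8, of complex I, with 0.73 (SE 0.153, unadjusted p = 0.000642, adjusted p = 1, and 0.0277 with the block); and Heg1, a receptor of cell junctions, with 0.69 (SE 0.152, unadjusted p = 0.000899, adjusted p = 1, and 0.0495 with the block). The somatic and process levels of Atp2b2 in PTX cultures differed by only 0.31, a difference that did not pass when any 1 PTX library or any 1 somata control library was left out, with adjusted p-values between 0.0579 and 0.182. Add2, a spectrin partner at synapses, was level with PTX at 0.08 and stood at 0.59 in control, an interaction of -0.52 with an adjusted p of 1 without and 0.149 with the block.

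**Figure D5:**
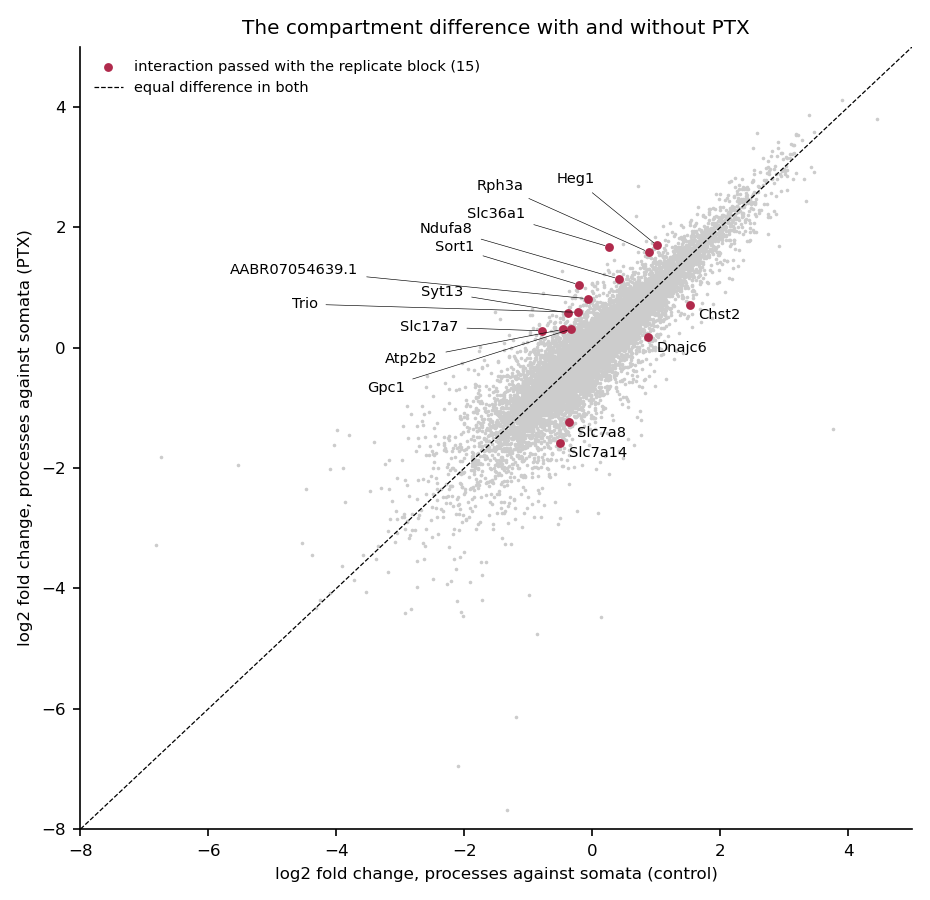
Log2 fold change of processes over somata in control (x axis) and PTX cultures (y axis) for the 14309 tested genes. The 15 genes whose interaction passed with the replicate block are red and the dashed line marks equal differences; 11 of them lie above it and 4 (Slc7a14, Slc7a8, Dnajc6 and Chst2) below, while r across all genes is 0.903.

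Between control and PTX cultures the medians of the lists differed by less than 1 on the log2 scale. The median of the ribosomal protein genes was 1.73 in control and 1.70 with PTX, and that of the Rfam-named RNAs -2.25 and -2.30. All 13 mitochondrially encoded mRNAs had a positive interaction, with medians of 2.98 and 3.24, but 0 of them had an unadjusted p under 0.05. The dendritic mRNAs had a median of 1.71 in control and 1.31 with PTX, with 19 of 21 interactions negative and 1 at an unadjusted p under 0.05, and the postsynaptic scaffolds 0.94 and 0.76, with 26 of 30 negative and 4 at such a p. Both lists hold Shank1, Shank2, Shank3, Dlg4, Dlgap3 and Psd, so their counts are not separate observations. Over all tested genes the median interaction was -0.009, and 4% had an unadjusted p under 0.05. Members of a list are not replicates, and no list was tested as a set. Camk2a differed by 2.55 in control and 2.22 with PTX (adjusted p of the interaction 1, and 0.591 with the block). The neuropeptide precursors had medians of -1.32 and -1.88, but the median of their interactions was only -0.20. Of these 17 interactions, 13 were negative and 1 had an unadjusted p under 0.05. Of the 9 granins and processing enzymes all 9 interactions were negative, 2 at an unadjusted p under 0.05. Of all the lists described, 4 members passed with the block, namely Ndufa8, Slc17a7, Dnajc6 and Chst2.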

How the data were processed

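Total RNA of 8 libraries, 2 for each of 4 conditions, was depleted of ribosomal RNA and sequenced. The deposited values are whole-number counts of reads per gene symbol, which the authors made with featureCounts on the Rnor_6.0 build. The labels name STAR as the aligner and the study's methods name another, so the aligner is uncertain. The kit keeps strand, but the setting used in counting was not given in the sources used here. Groups came from the labels, and each condition has 2 libraries.

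The gene lists were chosen with earlier results of these data known. Of 28909 symbols, the 14309 with over 20 reads in at least 2 libraries were tested with edgeR 4.0.16 in R 4.3.3, by the quasi-likelihood test with TMM factors and Benjamini-Hochberg adjustment, in 1 fit over all 8 libraries that shared the estimate of spread. A gene was called at an adjusted p under 0.05 and a log2 fold change beyond 1. The step was tested on simulated data. CPM values carry the TMM factor, and the sequences are RefSeq promoters of GRCr8.

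Named genes are those of at least 5 CPM, without overlap, with the 5 largest and smallest log2 fold changes of all symbols and the 10 and 10 of symbols that are neither clone names nor mitochondrial; the extremes of each list; the 8 smallest interaction p-values; and fixed genes, of which Malat1 and Meg3 matched no tested symbol. Other members of the lists were named after their values were seen.

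Replicate numbers pair the libraries across conditions: deviations from the condition means correlated between 0.274 and 0.54 in all 6 pairs of conditions, so a fit with the replicate number as a block was also made. Also tried were DESeq2 1.42.0, the likelihood ratio test, other scalings and filters, glmTreat at a fold of 1.5, the 4 PTX libraries alone, and leaving out each library. Protein sequences were not analysed here.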

Additional observations from a re-analysis of the deposited data

Results flagged for a closer look

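In the blocked fit, the compartment difference changed with PTX beyond an adjusted p of 0.05, by edgeR's test of the interaction, in 15 genes. In 11 of them the log2 fold change of processes over somata was more positive with PTX, and the size of the change was 1.25 for Sort1, 1.42 for Slc36a1, 1.08 for Slc17a7, 0.96 for Syt13, 0.89 for AABR07054639.1, 0.81 for Trio, 0.77 for Atp2b2, 0.73 for Ndufa8, 0.71 for Rph3a, 0.69 for Heg1 and 0.64 for Gpc1. In 4 it was more negative, by -1.07 for Slc7a14, -0.86 for Slc7a8, -0.81 for Chst2 and -0.69 for Dnajc6.

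Among those whose levels were not given above, Syt13, a relative of the synaptotagmins, was measured at 54.4 and 42.6 CPM in somata and 42.6 and 31.6 CPM in processes in control and at 48.9 and 34.5 CPM in somata and 78.5 and 46.6 CPM in processes with PTX. With PTX the process and somata libraries overlapped, and the log2 fold change of 0.58 passed with the block (adjusted p = 3.93e-05 by edgeR) but not without it. Rph3a, an effector of the vesicle protein Rab3, was measured at 24.2 and 22.2 CPM in somata and 46.5 and 39 CPM in processes in control and at 31.4 and 30.3 CPM in somata and 101 and 84.6 CPM in processes with PTX. Chst2, a sulfotransferase of the Golgi, was measured at 40.9 and 37.5 CPM in somata and 122 and 104 CPM in processes in control and at 45.8 and 50.7 CPM in somata and 71.8 and 86.7 CPM in processes with PTX, and Slc7a8, an amino acid transporter, at 26.7 and 19.7 CPM in somata and 21 and 15 CPM in processes in control and at 59.4 and 44.8 CPM in somata and 24.7 and 19.7 CPM in processes with PTX. Gpc1, a heparan sulfate proteoglycan, was measured at 67.8 and 63.2 CPM in somata and 53.5 and 50.9 CPM in processes in control and at 61.3 and 54.1 CPM in somata and 76.2 and 67.2 CPM in processes with PTX. AABR07054639.1 has only a clone name.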

How the results depend on the processing

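The counts of called genes, 1626 and 1383, stayed within a factor of 1.5 under the likelihood ratio test, DESeq2, RLE and upper quartile factors, either filter, glmTreat, the PTX libraries alone and the replicate block, which gave 1638 and 1500. Within that band, at least 10 reads in every library gave 1460 in processes and 969 in somata. The somatic calls thus rested more on genes with few reads in some library. The 2 counts moved to 820 and 3479 when scaled by the reads outside the mitochondrial genome, to 51 and 12144 with library size alone, and to 3680 and 3441 without the fold rule. The genes common to PTX and control, 2160, became 11773 with library size alone. The interaction count of 0 became 4 by the likelihood ratio test, 4 by DESeq2, 10 without a filter and 15 with the replicate block. Apart from that count, Slc17a7, Syt13 and the genes of the interaction, the block changed no call named here for PTX cultures. A block within the PTX libraries alone, chosen after seeing the data, gave 1661 and 1494. Leaving out 1 library at a time gave 1537 to 1745 and 1003 to 1445 called genes, 1901 to 2163 common genes and 0 interactions.

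With at least 10 reads in every library the medians relative to all tested genes turned to -0.027 for intermediate filaments and -0.026 for COP coats, and without a filter that of nuclear pores to 0.018. Upper quartile factors turned Actb to -0.10, Add2 to -0.10 and Dnajc6 to -0.0022. The reads outside the mitochondrial genome turned Actb to -0.38, Add2 to -0.38, Slc17a7 to -0.17, Atp2b2 to -0.15, Dnajc6 to -0.28 and Gpc1 to -0.14 in PTX cultures, and Slc36a1 to -0.20 and Ndufa8 to -0.043 in control.
Leaving out 1 library at a time gave a range of -0.23 to 0.052 for the tubulin median, turned without replicate 2 of PTX processes, and of -0.12 to 0.014 for nuclear pores, turned without replicate 1 of PTX processes. Add2 ranged from -0.047 to 0.21, and was also negative without replicate 2 of PTX somata (-0.03). In control, Slc36a1 ranged from -0.042 to 0.51 and AABR07054639.1 from -0.19 to 0.033. For each of these, the cause was not tested. Process libraries held fewer reads outside mitochondria, which limits the precision of low genes there, and 2 libraries a group leave the spread of single genes to the shared estimate.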

Other observations

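Genes of motile cilia, a list drawn up after the somatic leaders had been seen and so given without a test, were lower in processes for most members. Of 41 tested, 24 were called in somata and 1, Cfap36, in processes, with a median of -1.25 in PTX and -1.03 in control cultures. Their summed level was 485 and 411 CPM in PTX somata and 261 and 278 CPM in PTX processes. Ependymal cells are the cells of the brain known for such cilia, and the labels name only neurons.

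By class of gene, protein-coding symbols gave 1450 calls in processes and 1204 in somata of 13149 tested, long intergenic RNAs 20 and 39 of 251, and miRNA host loci or precursors 14 and 8 of 46. Mitochondrial tRNAs and rRNAs were all called in processes, with 4 of 4 and 2 of 2.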
